A study of Mus musculus with 6 samples.

Results

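Skeletal muscle sarcomere and contraction genes were followed through 6 RNA-seq libraries of mouse dorsal root ganglia, which house the cell bodies of sensory neurons. They were a list of 33 gene symbols, and all 33 were among the 38926 symbols in the count files. Of these, 25 encode parts of the sarcomere (9 of the thick filament, 8 of the thin filament, 8 of the Z-disc and the elastic filaments) and 8 serve calcium handling (4) or energy supply (4) in the same fibres. The libraries came from whole ganglia at lumbar levels L3 to L5 of wild type male C57BL/6 mice aged 6 to 8 weeks. Of the libraries, 3 were taken 3 days after a burn injury (burns 1 to 3), and 3 libraries were labelled control (controls 1 to 3). The labels call the tissue both whole ganglia and neurons, do not say what the control mice went through, and do not say whether each library came from its own animal. The p-values therefore measure the spread between these libraries, which may be technical. Burn 3 is the library titled BURN_IP, which carries no replicate number of its own, and what IP stands for is not said.

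The sarcomere is the contractile unit of striated muscle, in which myosin thick filaments pull on actin thin filaments anchored at Z-discs. Calcium released from the sarcoplasmic reticulum binds troponin on the thin filament and sets contraction off, and calcium pumps end it. Fast and slow fibres build the same structure from different isoforms, so that a fast and a slow gene exist for the myosin heavy chains, the regulatory light chain and each of the 3 troponin subunits. Sensory ganglia hold no muscle fibres, while muscle lies close to the vertebral column around them. How muscle transcripts came to be in these libraries was not tested.

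Coding sequences show which members a read of 75 bases can tell apart. Each sequence below is 1 window of 75 bases from a coding sequence of the GENCODE annotation of GRCm38, 5′ to 3′. Capitals in a slow isoform mark bases that differ from the fast isoform printed above it. The first set is the stretch in which the fast heavy chains Myh4, Myh1 and Myh2 were identical and Myh7 differed most, and the troponin sets are windows with the median number of differences for their pair.
Myh4, Myh1 and Myh2 (fast myosin heavy chains): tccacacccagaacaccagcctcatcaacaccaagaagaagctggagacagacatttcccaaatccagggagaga
Myh7 (slow myosin heavy chain): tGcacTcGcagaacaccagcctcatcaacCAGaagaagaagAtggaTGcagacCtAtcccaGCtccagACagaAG
Tnnt3 (fast troponin T): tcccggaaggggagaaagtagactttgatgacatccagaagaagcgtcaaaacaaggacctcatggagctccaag
Tnnt1 (slow troponin T): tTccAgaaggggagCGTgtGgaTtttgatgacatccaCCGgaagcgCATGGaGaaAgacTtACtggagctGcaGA
Tnni2 (fast troponin I): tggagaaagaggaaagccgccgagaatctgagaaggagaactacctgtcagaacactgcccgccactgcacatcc
Tnni1 (slow troponin I): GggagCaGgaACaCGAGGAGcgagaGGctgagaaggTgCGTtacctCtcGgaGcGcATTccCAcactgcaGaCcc
Tnnc2 (fast troponin C): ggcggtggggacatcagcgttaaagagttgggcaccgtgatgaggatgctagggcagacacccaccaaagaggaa
Tnnc1 (slow troponin C): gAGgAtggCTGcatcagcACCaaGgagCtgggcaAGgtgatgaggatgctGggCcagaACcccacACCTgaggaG
In these windows the slow isoform differed from the fast one at 17 bases in the heavy chains, 23 in troponin T, 29 in troponin I and 22 in troponin C. Over the aligned coding sequences, Myh4 was 90.1% identical to Myh1 and 77.5% to Myh7, and the fast and slow troponins were 65.9% (I), 68.1% (C) and 69.01% (T) identical.

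Reads that fitted several places were set aside by the authors' counting, so shared windows bear on the levels. Of all windows of 75 bases in the transcript, 21.97% in Myh1, 18.3% in Myh2 and 9.68% in Myh4 also occurred in another gene, mainly in each other. For Myh7 the share was 20.01%, mainly with the cardiac gene Myh6, and 0 of its windows occurred in the 3 fast heavy chains. Reads from windows shared between heavy chains could not be given to a single one, and none of these windows joins Myh7 to a fast one. Windows were matched on both strands, so the shares also take in genes on the opposite strand at the same place. A read from such a place fits a single position and was not set aside for that reason. In 16 members no window occurred in another gene, among them Mylpf, Myl2, Tnnt1, Tnnt3, Tnni1, Tnni2 and Tnnc1. Tnnc2 had the highest share, 40.6%, all with Ube2c, a gene on the opposite strand whose exons cover 74.0% of those of Tnnc2. The kit, TruSeq stranded total RNA, keeps strand; whether the counting used it is not stated by any source used.

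All 33 members were detected in every library, with at least 89 reads (Tnnc1 in burn 1). Together they took 2.99%, 0.968% and 0.195% of the reads counted in genes in controls 1 to 3, and 0.75%, 2.502% and 0.455% in burns 1 to 3. Counting error is small beside these differences: the 95% Wilson interval ran from 0.194% to 0.196% in control 3 and from 2.98% to 2.99% in control 1. In CPM, read counts scaled to a common library size by edgeR's TMM factors, the summed level was 29353, 9299 and 2008 in controls 1 to 3 and 7287, 24897 and 4840.0 in burns 1 to 3. Control 1 and burn 2 were high, control 2 and burn 1 intermediate, and burn 3 and control 3 low. Each group thus held a high, a middle and a low library, and the highest stood 14.6 times above the lowest. In bulk tissue, fewer muscle fibres in a sample and less RNA per fibre cannot be told apart. The low libraries, control 3 and burn 3, were also the deepest, at 81968142 and 70002671 reads in genes against 17273908 to 35991111 in the other 4. They had the highest shares of mitochondrial transcripts, 4.41% and 5.44% against 1.71% to 2.696%. The part of depth and of RNA handling in the muscle level was not tested.

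**Figure D1:**
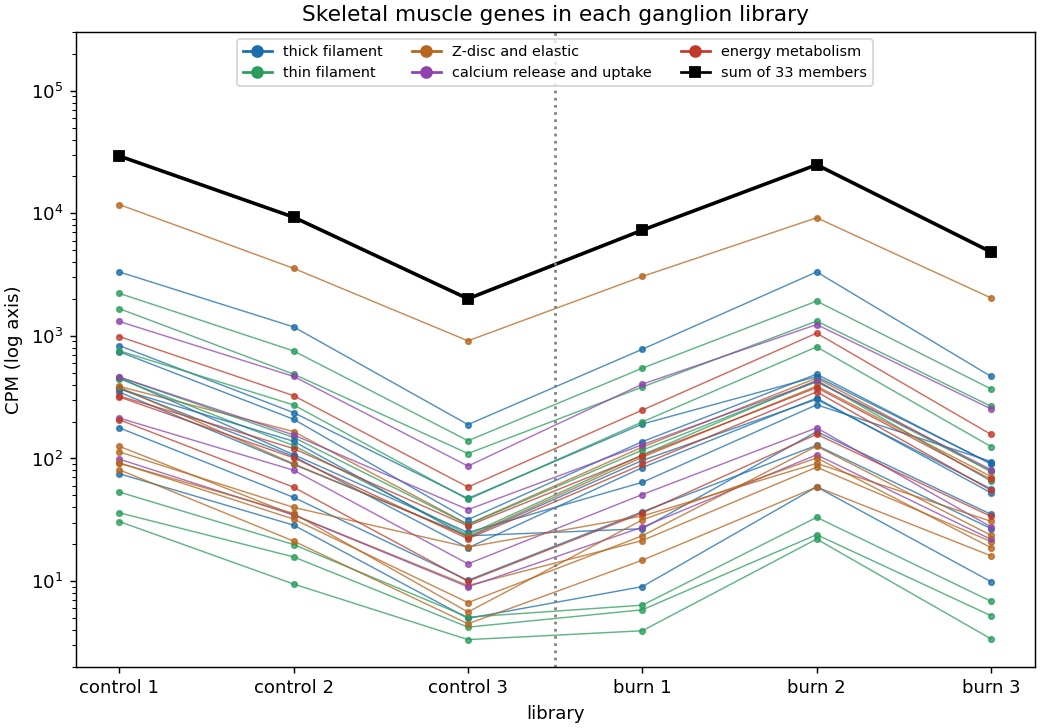
Level of each of the 33 members (thin lines, coloured by role) and of their sum (black squares) in the 3 control and 3 burn libraries, in CPM on a log axis. Every line is highest in control 1 or burn 2 and lowest in control 3.

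Titin led by read number. Ttn, at chr2:76703980-76982547 (GRCm38), encodes the giant elastic protein that spans the sarcomere from Z-disc to mid-line, and its merged exons measure 116825 bases. It stood at 11784, 3556 and 911 CPM in controls 1 to 3 and 3055, 9195 and 2039 CPM in burns 1 to 3. In control 1 this single gene took 1.200% of all reads counted in genes, and its share of the members' reads ran from 36.9% (burn 2) to 45.4% (control 3). Per kilobase of exon, which allows levels of genes of different length to be compared, titin ranked lower: its mean over the 6 libraries was 43.6 CPM per kilobase, against 646 for Acta1, the skeletal alpha-actin of the thin filament and the highest member. Neb, which encodes the thin filament ruler nebulin, stood at 1668, 487 and 109.7 CPM in controls 1 to 3 and 383, 1319.7 and 267 CPM in burns 1 to 3.

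On this per-kilobase scale the members covered a wide range. Division by merged exons places genes with several transcripts lower: those of Tnni1 measure 3600 bases, its longest transcript 2153. Acta1 stood at 1447, 491 and 90.9 CPM per kilobase in controls 1 to 3 and 355, 1251 and 240.3 in burns 1 to 3. It was the highest member in each library. Below it came Mylpf (267 CPM per kilobase as the mean of 6 libraries), the fast regulatory light chain of myosin, Tnnc2 (262), the fast calcium-binding troponin C, Myh4 (257), the myosin heavy chain of the fastest fibres, and Tnnt3 (233), the fast tropomyosin-binding troponin T. Differences among these 4 were far smaller than the spread of each between libraries: Mylpf alone ran from 29.9 to 700.1 CPM per kilobase. The lowest means belonged to Tnni1 (4.21), the slow inhibitory troponin I, Cacna1s (7.61), the voltage sensor of the muscle cell membrane, Ldb3 (8.95), a Z-disc adaptor, and Tnnt1 (9.41), the slow troponin T.

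At the Z-disc, where thin filaments of neighbouring sarcomeres meet, actin is cross-linked by alpha-actinins. Actn3, the form of fast fibres, stood at 387, 166 and 29.1 CPM in controls 1 to 3 and 124, 453 and 78.4 CPM in burns 1 to 3. Actn2, found in all fibres, stood at 126, 34.7 and 9.19 CPM in controls 1 to 3 and 21.4, 84.95 and 20.99 CPM in burns 1 to 3. In both, control 1 and burn 2 were the highest libraries and control 3 the lowest. Means over the 6 libraries were 177 CPM for Xirp2, an actin-binding protein, 50.6 CPM for Tcap, which caps titin, 47.3 CPM for Myoz1 and 32.7 CPM for Myot, which encodes myotilin.

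Genes of calcium handling and energy supply were also highest in control 1 or burn 2 and lowest in control 3. Burn 2 was the highest library in 3 of the 4 energy genes (Ckm, Pygm and Eno3) and 1 of the 4 calcium genes (Cacna1s), against 1 of 9 thick filament, 1 of 8 thin filament and 4 of 8 Z-disc and elastic genes. Atp2a1, the calcium pump of fast fibres, stood at 1311, 467 and 86.7 CPM in controls 1 to 3 and 404, 1238 and 254 CPM in burns 1 to 3. Ryr1, the calcium release channel, stood at 462, 156 and 38.3 CPM in controls 1 to 3 and 129, 425 and 81.2 CPM in burns 1 to 3, and Casq1, which stores calcium in the reticulum, at a mean of 93.96 CPM over the 6 libraries. Ckm, muscle creatine kinase, which regenerates ATP, stood at 988, 325 and 58.4 CPM in controls 1 to 3 and 248, 1054 and 157 CPM in burns 1 to 3. Means over the 6 libraries were 171 CPM for Pygm, the glycogen phosphorylase of muscle, 156 CPM for the glycolytic enzyme Eno3 and 83.7 CPM for Mb, the oxygen store myoglobin. The 8 Z-disc and elastic genes took from 42.2% to 50.2% of the members' reads in a library, the 9 thick filament genes from 18.6% to 23.1% and the 8 thin filament genes from 17.98% to 20.05%. The 4 calcium genes took from 7.103% to 8.39% and the 4 energy genes from 5.91% to 7.79%. These shares varied far less between libraries than the total.

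The members rose and fell together from library to library. In 33 of 33 members control 3 was the lowest library, and in 33 of 33 control 1 and burn 2 were the highest pair, control 1 leading in 23 and burn 2 in 10. In 27 members the lowest pair was control 3 and burn 3. Across the 6 libraries, which the members share, the log2 level of a member had a Pearson correlation with the summed level of the other 32 that ran from 0.91 (Myh7) to 0.9997 (Myl1), with a median of 0.994. The ratio of control 1 to control 3, both of the control group, had a median of 15.5 over the members. It was largest in Mylpf (23.4), Mb (20.8) and Myl1, the fast essential light chain (19.99).

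A few members departed from the common profile in control 3, the library with the least muscle RNA. Ldb3 stood at 113, 39.9 and 18.9 CPM in controls 1 to 3 and 33.9, 91.2 and 30.7 CPM in burns 1 to 3, so that its ratio of control 1 to control 3 was 5.98, the smallest of all. The next were the slow troponin genes, Tnni1 (8.57), Tnnc1 (9.19) and Tnnt1 (10.5). Relative to the average member, Ldb3 was 0.85 higher on the log2 scale in control 3 than over all libraries. In burn 3, the next lowest library, Ldb3 was 0.31 higher. On this scale Tnni1, Tnnc1 and Tnnt1 stood at 0.77, 0.88 and 0.67 in control 3 but at -0.18, -0.33 and -0.16 in burn 3. Their departure was thus not shared by both low libraries. Expression of these genes by cells of the ganglion itself was not tested.

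**Figure D2:**
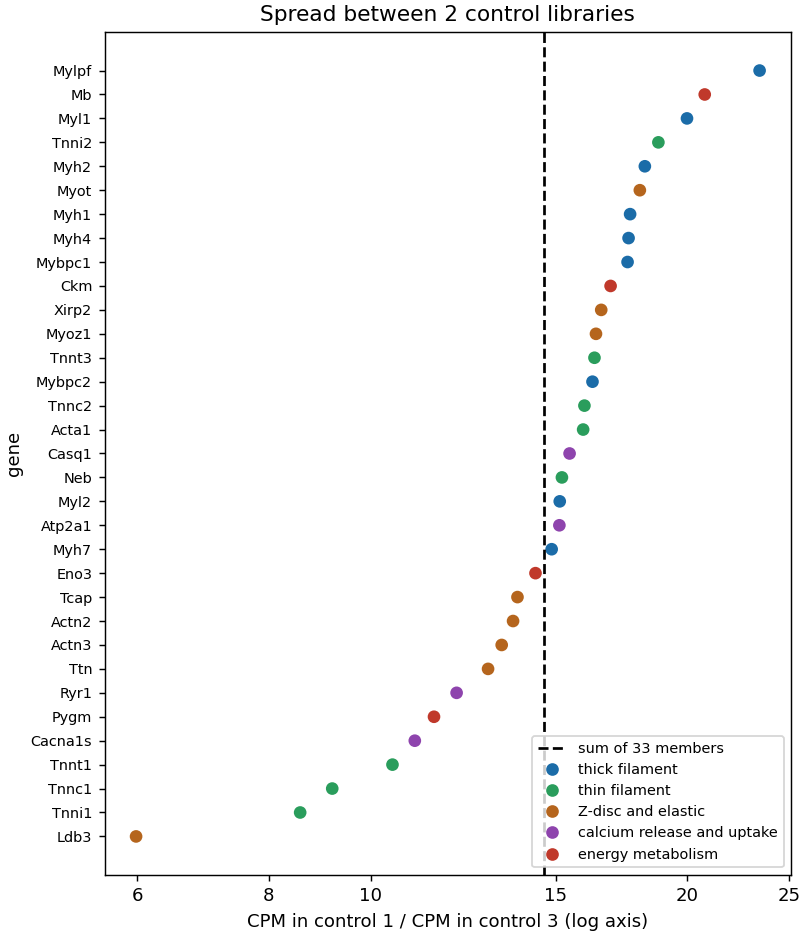
Ratio of the CPM in control 1 to that in control 3 for each member, on a log axis, coloured by role; the dashed line is the ratio of the summed level, 14.6. Most members lie between 11 and 21, and Ldb3, Tnni1, Tnnc1 and Tnnt1 lie at the low end.

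The comparison of burn with control asks whether injury went with a change in any transcript, and no member passed the test. By edgeR's quasi-likelihood test 0 of 33 members passed an adjusted p under 0.05, where 4 of 17534 genes did (0.0228%, all higher), and 0 members passed at an unadjusted p under 0.05, where 519 genes did (2.96%). DESeq2 also called 0 members (0.132% of the genes it tested) and limma-voom 0. The burn and control values were fully apart in 0 of 33 members, against 1269 of 17534 genes (7.24%). All 33 members passed the filter on low counts, and the lowest adjusted p among them was 0.9998. The summed level had a mean of 13553 ± 14160.0 CPM in controls and 12341 ± 10942 CPM after the burn (SD, n = 3). On the log2 scale the burn mean was 0.23 higher (SE 1.33; exact permutation p = 1.0, two-sided, where 3 against 3 cannot go below 0.1).

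Direction was not settled either. The median log2 fold change of the members was -0.15, with 11 of 33 positive, beside a median of 0.01 over all genes tested, while the mean of log2 sums above was positive. Single values ran from -1.02 (SE 1.16) in Myh7 to 0.41 (SE 1.11) in Tcap, the titin cap, and Ttn had -0.19 (SE 1.02). Without control 1 the members' median was 1.15, and without burn 2 it was -1.21. Between the deeper libraries, burn 3 minus control 3, the summed level differed by 1.27 on the log2 scale, and among the other 4 by -0.29. Spread between libraries was large: the biological coefficient of variation had a median of 0.861 over the members (0.629 to 0.920), against 0.185 over all genes tested, and all 33 members lay above the level that 95% of genes stayed under, 0.374.

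A ratio of a fast to a slow isoform within a library does not depend on how that library is scaled, though its size depends on the exon lengths used. Fast isoforms prevailed in all 6 libraries. Per kilobase, the fast heavy chains Myh1, Myh2 and Myh4 together exceeded the slow one by a factor of 18.5, 24.01 and 15.6 in controls 1 to 3 and 54.3, 34.6 and 25.9 in burns 1 to 3. The factor for troponin T, Tnnt3 over Tnnt1, was 19.8, 19.1 and 12.7 in controls 1 to 3 and 43.4, 34.2 and 25.4 in burns 1 to 3. Burn 1 led and control 3 came last in both. For troponin I, Tnni2 over Tnni1, it was 29.9, 19.4 and 13.6 in controls 1 to 3 and 43.99, 43.8 and 30.04 in burns 1 to 3. Troponin C, Tnnc2 over Tnnc1, had 19.6, 20.4 and 11.3 in controls 1 to 3 and 38.5, 24.99 and 30.2 in burns 1 to 3. In these 4 of 6 pairs every burn library lay above every control library, and burn 1 was the highest and control 3 the lowest. By CPM of single genes, the groups did not overlap in 7.24% of all genes tested. That share does not apply to ratios within a library. No share over other ratios was computed, so the 4 of 6 have no background beside them.

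On the log2 scale the burn mean exceeded the control mean by 0.94 (SE 0.36) for the heavy chains, 0.99 (SE 0.30) for troponin T, 0.96 (SE 0.37) for troponin I and 0.90 (SE 0.33) for troponin C. Each had an exact permutation p of 0.1, two-sided, the smallest that 3 against 3 can give, and 0.15 after Benjamini-Hochberg adjustment over the 6 pairs. None of them passes a threshold of 0.05, which this design cannot reach. The pairs were measured in the same 6 libraries and are not independent of each other. With any single library left out, these 4 differences ran from 0.62 to 1.25. As no burn and control values overlapped, their sign could not turn. The same holds for the comparisons that follow, which give sizes only. Between the deeper libraries, burn 3 minus control 3, the differences were 0.73 (heavy chains), 1.001 (T), 1.14 (I) and 1.42 (C), and among the other 4 libraries 1.04, 0.98, 0.86 and 0.63. Between burn 2 and control 1, the libraries with the most muscle RNA in their groups, they were 0.90, 0.79, 0.55 and 0.35.

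**Figure D3:**
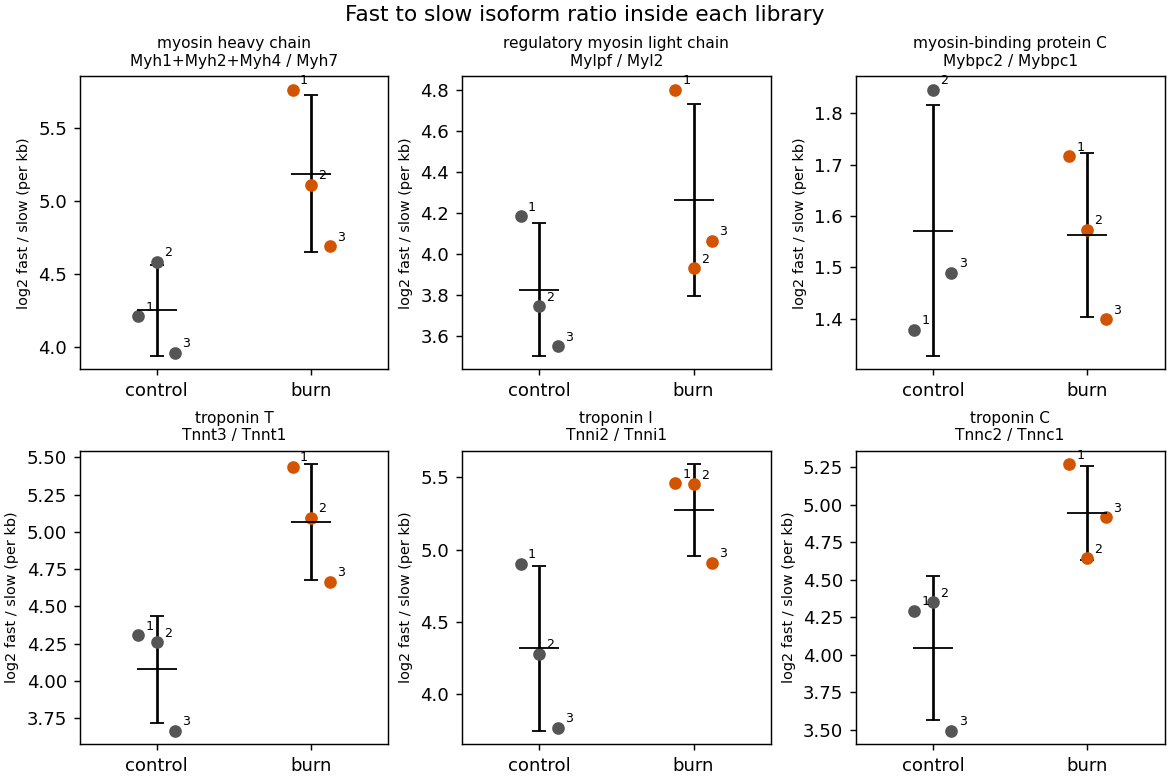
Fast to slow ratio per kilobase of exon, on a log2 scale, for 6 isoform pairs; points are libraries marked by replicate number, bars the mean and SD of 3 libraries, and each panel has its own vertical range. Burn points lie above all control points for the heavy chains and the 3 troponins, and overlap for the regulatory light chain and myosin-binding protein C.

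The other pairs overlapped. For the regulatory light chain, Mylpf over the slow form Myl2, the factor was 18.2, 13.4 and 11.7 in controls 1 to 3 and 27.9, 15.3 and 16.7 in burns 1 to 3. The burn mean was 0.44 (SE 0.33) higher on the log2 scale (exact permutation p = 0.3, adjusted 0.36). Burn 1 was again the highest library, while burns 2 and 3 lay below control 1. For myosin-binding protein C, which ties thick filaments together, Mybpc2 over Mybpc1 had 2.601, 3.59 and 2.81 in controls 1 to 3 and 3.29, 2.98 and 2.64 in burns 1 to 3. This difference was -0.01 (SE 0.17), with an exact permutation p of 1.0, and the fast form prevailed far less than in the other pairs.

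Myosin heavy chains mark fibre types. Myh2, Myh1 and Myh4 lie beside each other at chr11:67171027-67197517, chr11:67200052-67224575 and chr11:67238029-67260446, and Myh7 at chr14:54970684-54994626 (GRCm38). Myh4, the heavy chain of the fastest fibres, stood at 3325, 1184 and 189 CPM in controls 1 to 3 and 778, 3326 and 467 CPM in burns 1 to 3. Myh7, the heavy chain of slow fibres, stood at 348, 89.4 and 23.4 CPM in controls 1 to 3 and 26.7, 166 and 35.04 CPM in burns 1 to 3. Burn 1 thus had nearly as little Myh7 as control 3, though its Myh4 was far higher. As shares of the 4 heavy chains per kilobase, Myh4 made up 69.7% to 80.9%, Myh1 10.7% to 17.5% and Myh2 5.22% to 12.1%. The share of Myh7 was 5.12, 3.998 and 6.02% in controls 1 to 3 and 1.81, 2.81 and 3.72% in burns 1 to 3. Burn 3 had the largest share of Myh2, the fast oxidative form, at 12.1%.

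**Figure D4:**
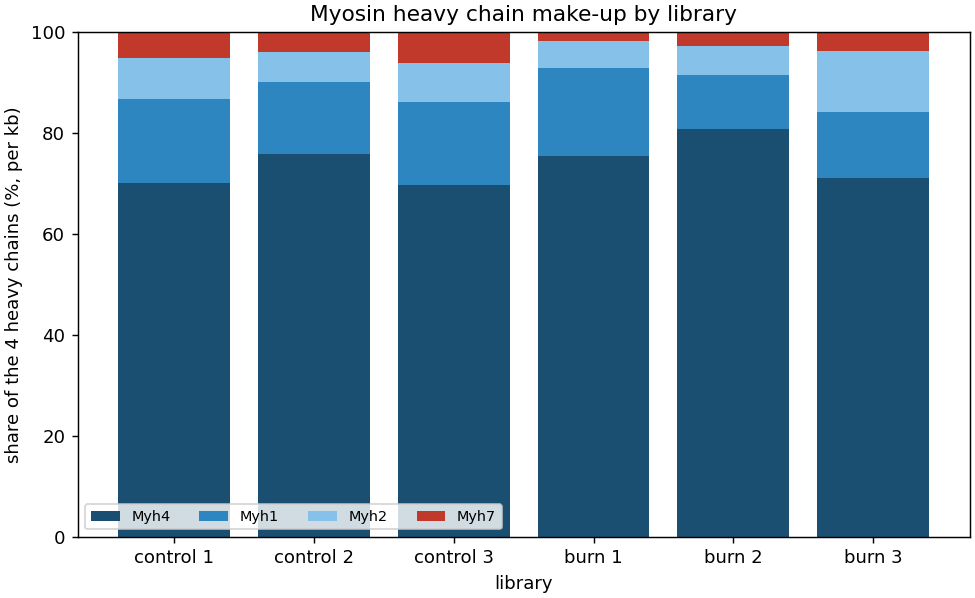
Share of each heavy chain among Myh4, Myh1, Myh2 and Myh7, in percent of CPM per kilobase, in the 6 libraries. Myh4 makes up about 70% or more of each bar, and the Myh7 segment is smallest in burn 1 and largest in control 3.

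The slow troponins were followed in their own levels too. Tnnt1 stood at 53.2, 19.9 and 5.07 CPM in controls 1 to 3 and 6.36, 33.1 and 6.84 CPM in burns 1 to 3, Tnni1 at 36.1, 15.7 and 4.21 CPM in controls 1 to 3 and 5.83, 23.9 and 5.21 CPM in burns 1 to 3. Tnnc1 had 30.6, 9.45 and 3.33 CPM in controls and 3.93, 22.01 and 3.37 CPM in burns. Their absolute levels overlapped between the groups. Deviations were then taken relative to the average of all 33 members in the same library and centred on each gene's own mean over the 6 libraries, so that they compare libraries and not genes. On this scale Myh7 was 0.57, 0.24 and 0.52 on the log2 scale in controls 1 to 3 and -0.93, -0.26 and -0.14 in burns 1 to 3. Tnnt1 was 0.12, 0.35 and 0.67 against -0.67, -0.31 and -0.16. In both genes the controls lay above the burns. The same separation was seen on this scale in 12 of 33 members, in both directions. All controls lay above all burns in 5, Myh7, Myl2, Tnnt1, Tnni1 and Tnnc1. All burns lay above all controls in 7, Tnnc2, Atp2a1, Xirp2, Tcap, Myoz1, Pygm and Eno3, of which only Tnnc2 was the fast form of a pair tested. In Xirp2 the deviations were -0.01, -0.46 and -0.21 in controls and 0.27, 0.26 and 0.16 in burns, so separation was not limited to slow isoforms. The deviations within a library are relative to each other and are not independent, and no test was made of them. No share over all genes was computed on this scale, so the 12 of 33 have no background beside them. The 5 slow genes are the slow forms of ratios given above and repeat those in part. Mybpc1, which the pairs count as slow, stayed within -0.09 to 0.15.

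**Figure D5:**
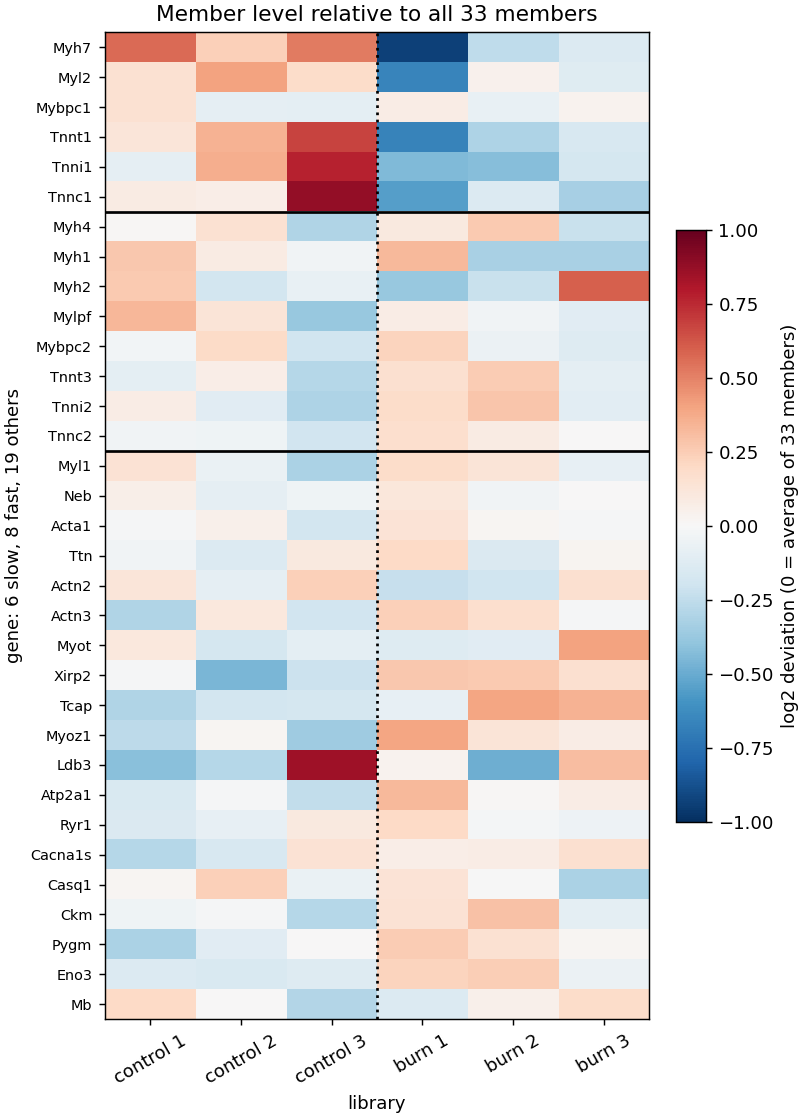
Level of each member relative to the average of all 33 members in the same library, as a log2 deviation from its mean over the 6 libraries, with slow isoforms at the top, fast isoforms below them and the other members at the bottom. Slow isoforms other than Mybpc1 are mostly above 0 in controls and below 0 in burns, and Ldb3 stands out in control 3.

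Partner isoforms outside the 33 members gave ratios of the same kind, as a description without a test. Myl1 over Myl3, the slow essential light chain, was 9.83, 9.205 and 7.43 in controls 1 to 3 and 16.5, 12.5 and 11.5 in burns 1 to 3. Myoz1 over Myoz2, the fast and slow calcineurin-binding myozenins of the Z-disc, was 5.88, 5.999 and 5.79 in controls 1 to 3 and 11.5, 9.92 and 7.97 in burns 1 to 3. In both, every burn library lay above every control. The same held for Acta1 over Actc1, the skeletal and cardiac alpha-actins, whose values are given under the other observations. No share over other pairs of genes was computed, so these separations have no background beside them. Actn3, the alpha-actinin of fast fibres, over Actn2, the general form, was 4.03, 6.25 and 4.14 in controls 1 to 3 and 7.57, 6.97 and 4.89 in burns 1 to 3, with overlap. Casq1 over Casq2, the slow and cardiac calsequestrin, was 13.4, 10.2 and 2.93 in controls 1 to 3 and 6.11, 20.1 and 4.12 in burns 1 to 3. Atp2a1 over Atp2a2, the slow and widely expressed pump, was 5.87, 2.73 and 0.4 in controls 1 to 3 and 2.32, 5.83 and 1.203 in burns 1 to 3. Atp2a2 itself ran only from 299 to 391 CPM, so these last ratios followed the muscle level.

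Other genes of skeletal muscle followed the members closely. A list of 40 further muscle genes had 40 tested, 0 called by edgeR (0.0228% of all genes) and a median log2 fold change of -0.02 beside 0.01 over all genes tested. Its summed level was 3343, 1164 and 379 CPM in controls 1 to 3 and 952, 3159 and 699 CPM in burns 1 to 3. In 35 of the 40 the correlation with the members' summed level over the 6 libraries was above 0.9. The other 5 were Fbxo32, Myh3, Myh8, Chrna1 and Sln, of which Myh3 and Myh8 are the embryonic and neonatal heavy chains. Among 302 genes outside the members with a mean of at least 1 CPM and a range of at least 4-fold, the 10 most like the members included Tpm2, Rpl3l, Phkg1, Dhrs7c, Myom2, Des, Hfe2, Nrap and Pgam2. Their correlations ran from 0.9976 to 0.9995. Tpm2, a tropomyosin of the thin filament, was first, and Des encodes the filament desmin that links Z-discs. In all, 113 of these 302 genes had a correlation above 0.95, and 33 of them were in that list of 40.

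Transcription factors of muscle precursors were present at trace levels. Myf6, which is kept on in mature fibres, had 139, 23 and 28 reads in controls and 21, 89 and 58 in burns, and Myod1 57, 11 and 13 and 6, 36 and 20. Myog ran from 3 to 27 reads, Pax7 from 2 to 29, Pax3 from 2 to 20 and Myf5 from 1 to 6. Of the 6 genes of that list 2 passed the filter and 0 were called. Of 8 cardiac genes, 4 were tested and 0 called, and their sum, mostly Ryr2, had a correlation of -0.50 with the members' summed level. Gene by gene the correlation ran from -0.64 in Myl7 to 0.73 in Myh6, both with few reads, so the sum describes mainly Ryr2 (-0.49). Myh6, the main heavy chain of mouse heart, had 0 to 17 reads and the atrial peptide gene Nppa 0 to 3. The 6 smooth muscle genes, 0 of them called, had a correlation of 0.91 in sum, led by Des, which skeletal muscle also expresses. It was lower in Acta2 (correlation -0.09), Tagln (0.05) and Myh11 (-0.52).

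Markers of the ganglion were abundant at every muscle level. Those of sensory neurons summed to 10115 to 12285 CPM in controls and 9328 to 11395 CPM in burns, with Tubb3, Nefh and Uchl1 the most abundant. Those of ganglion glia summed to 5781 to 8753 CPM in controls and 4836 to 7713 CPM in burns, with Pmp22 and Apoe the most abundant. They were lowest in burn 2 (4836 CPM) and control 1 (5781 CPM), the libraries with most muscle RNA. Correlations with the members' summed level over the 6 libraries were -0.71 for glia and -0.19 for sensory neurons. Markers of other tissues near the ganglion had other profiles. Spinal cord markers summed to 45.4 to 75.6 CPM in controls and 74.7 to 184 CPM in burns, highest in burn 3, where muscle was low, and led by Slc1a2, Aqp4 and Slc6a5. All 8 had positive log2 fold changes, with a median of 1.52, and 0 of 8 were called. Cartilage and bone markers summed to 24.2 to 38.5 CPM in controls and 19.02 to 29.2 CPM in burns, tendon markers to 58.1 to 123 CPM in controls and 65.9 to 95.5 CPM in burns, adipocyte markers to 29.6 to 51.6 CPM in controls and 33.7 to 62.7 CPM in burns and erythroid genes to 1251 to 2840.0 CPM in controls and 1461 to 2335 CPM in burns. For these lists the same correlations were 0.04, 0.55, 0.58, 0.22 and 0.49 in that order. In none of these lists was a gene called by edgeR. Their part in the fast to slow ratios was not tested.

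The members' promoters were searched for motifs known from muscle genes. A link between these motifs and the members' common profile over the libraries was not tested. RefSeq promoters of GRCm38.p6 were found for 26 of 33 members. The 250 bases before the start site were searched on both strands, except for TATAAA. For each gene the first promoter listed was used, which need not lie at the gene's GENCODE start. That of Myl2 lay at chr5:122092474-122092723, before the gene's start at 122100951. That of Tnni1, at chr1:135799171-135799420, lay inside the gene, chr1:135779434-135810989. The E-box CANNTG, bound by factors such as MyoD, was in 22 of 26 (84.6%), against 66.04% of all 27025 promoters. The MEF2 motif CTANNNNTAG was in 2 (7.69%, against 3.23%), in Ttn and Xirp2, and the CArG box of serum response factor in 3 (11.5%, against 1.399%), in Acta1, Myh4 and Ldb3. The letters TATAAA on the gene's own strand were in 4 (15.4%, against 8.12%). The windows of Myh4, the most abundant fast heavy chain, and of the slow Myh7 are shown as a fast and slow pair, printed 5′ to 3′ with CArG, MEF2 and TATAAA matches in capitals. None overlapped another in these windows.
Myh4 at chr11:67237562-67237811, plus strand: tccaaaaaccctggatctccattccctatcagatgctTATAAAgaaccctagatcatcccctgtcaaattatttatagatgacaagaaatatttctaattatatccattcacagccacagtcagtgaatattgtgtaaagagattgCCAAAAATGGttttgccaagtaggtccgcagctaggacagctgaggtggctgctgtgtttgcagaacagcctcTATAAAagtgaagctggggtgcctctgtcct
Myh7 at chr14:54994627-54994876, minus strand: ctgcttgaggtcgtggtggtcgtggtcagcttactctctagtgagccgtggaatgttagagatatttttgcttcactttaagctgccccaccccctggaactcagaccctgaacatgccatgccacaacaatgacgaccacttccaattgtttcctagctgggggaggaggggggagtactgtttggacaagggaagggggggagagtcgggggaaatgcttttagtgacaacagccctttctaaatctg
Myh4 held 1 CArG box and 2 TATAAA matches, and Myh7 held none of the 3 motifs marked. A match describes letters and is not evidence of a bound site.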

How the data were processed

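The authors deposited raw counts of reads per gene symbol, 1 file per library. Per the submitters' processing notes the tools were HTSeq, SAMtools and STAR, with mm10 and GRCm38 listed as builds; no version, annotation release or strand setting is stated in the sources used. The 5 tally lines that name no gene, 49.2% to 56.2% of entries per library, were left out, and alignments that were not unique made up 34.7% to 42.8% of entries.

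All 17534 genes past filterByExpr (minimum count 10, minimum total 15) were tested with edgeR 4.0.16 in R 4.3.3: TMM scaling, glmQLFit with robust set, glmQLFTest, group as the only term, Benjamini-Hochberg adjustment over all genes, threshold 0.05. Standard errors divide the absolute log2 fold change by the root of F. CPM uses the TMM-scaled totals. Lengths are merged exons of GENCODE mouse release 21 (GRCm38), in which all 33 members were found. Isoform ratios add 0.5 reads to each gene. Exact permutation tests enumerate all 20 splits. Wilson intervals are at 95% and cover counting error only, since reads carry no molecular identifiers. DESeq2 1.42.0, limma-voom 3.58.1, other scaling, filters, a term for depth, a block on replicate number and each library left out were alternatives. The edgeR fit was tested on simulated data, with changes put into genes picked at random. Counts were drawn at the spread typical for a gene's level, while all 33 members had a spread above that of 95% of genes. The simulation therefore cannot tell what change the fit would find in the members.

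Every member is named. Other genes named are from the 10 most like the members (1 is not reported here), the most abundant of each list, and all partner isoforms and precursor factors; the remaining names were chosen after their values were seen. The members and lists were chosen with earlier results of these data known. Figures were drawn with matplotlib 3.10.9. All 6 libraries were used.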

Additional observations from a re-analysis of the deposited data

How the results depend on the processing

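The count of 0 called members was the same under every fit other than the crossed block given below, while the count over all genes moved from 4 to 14 without a filter, 28 by DESeq2, 38 with a depth term and 15 in the 4 libraries numbered 1 and 2 alone, and to between 1 and 6 with a library left out. The members' median log2 fold change was negative under other scaling factors, other filters, DESeq2 and the fits on the libraries numbered 1 and 2, and positive with limma-voom (0.19) and with the depth term (0.24). Ttn turned positive under these last settings (0.15 and 0.16), and with a library left out it ran from -1.09 to 1.09, Myh7 from -2.32 to 0.44 and Tcap from -0.89 to 1.61. The difference in log2 summed level ran from -0.79 to 1.15 with a library left out, and the small difference for myosin-binding protein C from -0.10 to 0.13. The causes of these turns were not tested. The other 5 isoform pairs kept their sign under each of these settings. Between single libraries the regulatory light chain did not: burn 2 minus control 1 was -0.25 on the log2 scale. For the heavy chains and the troponins the groups did not overlap, so neither a library left out nor a replicate block could turn it. Another length shifts all libraries of a pair alike, except in the heavy chains, which sum several genes.

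With a replicate block over the libraries numbered 1 and 2, 4 genes and 0 members were called, the difference in summed level turned to -0.29 and that for myosin-binding protein C to 0.032, and the other 5 pairs kept their sign. The labels do not say that a number marks a shared animal or day, and over 17534 genes the deviations from the means of 3 libraries had a correlation of -0.09 between the libraries numbered 1 and -0.055 between those numbered 2. With the means taken over the 4 numbered libraries alone the correlation was -0.39. A replicate block crossed, burn 1 with control 2 and burn 2 with control 1, was added after seeing the data. It called 413 of 17319 genes tested, 310 of them lower, and 10 of 33 members, all lower. This pairing was taken from the data, so its calls are no support for a change. Both blocks left 1 residual degree of freedom.

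With 3 libraries a group, a permutation test cannot pass 0.05. The slow isoforms had from 89 to 12736 reads per library, and the part of counting error in their ratios was not tested.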

Other observations

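Pvalb, which encodes the calcium buffer parvalbumin and is known from both fast muscle fibres and proprioceptive sensory neurons, stood at 463, 194 and 101 CPM in controls 1 to 3 and 164, 469 and 122 CPM in burns 1 to 3. Its correlation with the members' summed level over the 6 libraries was 0.97, and its highest library was 4.64 times its lowest, a narrower range than that of any of the 33 members. Tpm1, a tropomyosin of muscle and other cells, stood at 1167, 588 and 339 CPM in controls 1 to 3 and 444, 1132 and 416 CPM in burns 1 to 3 (correlation 0.97). Musk, the receptor kinase of the neuromuscular junction, followed with a correlation of 0.97 and a range of 1.47 times.

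Actc1, the cardiac alpha-actin that skeletal muscle also makes, did not share the members' profile: it stood at 152, 51.7 and 7.02 CPM in controls 1 to 3 and 16.2, 12.8 and 6.87 CPM in burns 1 to 3. It was high in controls 1 and 2 and low in burn 2, where the members were high. The ratio of Acta1 to Actc1 per kilobase was 15.4, 15.4 and 20.9 in controls 1 to 3 and 35.3, 158 and 56.6 in burns 1 to 3. Myh3, the embryonic heavy chain, had 123, 26 and 96 reads in controls and 11, 33 and 52 in burns, which is 3.36, 1.45 and 1.21 CPM against 0.486, 1.09 and 0.79 CPM. Neither gene was called by edgeR over all genes. Both were chosen for mention after their values were seen, from the lists of muscle genes and partner isoforms.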
